A study of Mus musculus with 22 samples.

Results

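The genes described here are 38 hypoxia targets and genes of glycolysis, taken by symbol from an expression table of 23953 gene symbols, and all 38 were found. They comprise 3 genes of oxygen sensing, 15 hypoxia targets outside glycolysis, 15 genes of glucose uptake and the glycolytic enzymes, and 5 genes that control glycolysis or handle lactate. RNA was measured as RPKM (reads scaled to transcript length and library depth) in 10 mouse libraries, and peaks of chromatin immunoprecipitation came from 12 more. BV2, an immortalised mouse microglial line, had been transduced with a lentivirus whose insert is driven by a CMV promoter. The insert encoded the N-terminus of human huntingtin, with 128 glutamines in the mutant fragment and 15 in the wild-type fragment, and was absent from the empty vector, with 2 RNA libraries each and no further treatment. Whether each line is a clone or a pool, and whether its libraries came from separate cultures, is not given in the labels. Each construct had 1 RNA library at each time, so no spread between repeat libraries could be measured. The p-values reflect the scatter among these libraries alone. It mixes differences between constructs or times with variation that may be technical. The libraries of one time are called 24 h by every source. Those of the other time are called 6 h in the header of the table and 48 h in the labels, so they are named the second time here and no order is assumed. Adult microglia and bone marrow derived macrophages came from mice with huntingtin of 175 glutamines on both alleles (Q175) or of 7 glutamines on both alleles (Q7), 1 RNA library each. The age of the mice is not given in the labels. The microglia came from cortex, striatum and hippocampus and were sorted as CD11b+ CD45-low cells, and the macrophages were grown in medium conditioned by L cells.

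When oxygen is plentiful, prolyl hydroxylases such as Egln1 and Egln3 mark the alpha subunit of hypoxia-inducible factor (HIF), encoded by Hif1a, for degradation. When oxygen is scarce the subunit is spared, pairs with Arnt and binds DNA elements with the core ACGTG or GCGTG, where it raises genes of glucose uptake, glycolysis, mitophagy and blood vessel growth. Activated macrophages are known to use the same genes for glycolysis also at normal oxygen. HIF is controlled mostly through the stability of the Hif1a protein, which RNA does not show.

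Promoters of 6 members are shown because most members share the HIF core while their RNA differed in direction and size. Each stretch is the 300 bases around a start listed by RefSeq on GRCm38.p6, mostly before it and written 5′ to 3′ on the strand of the gene, and capitals mark ACGTG or GCGTG read on either strand, with overlapping copies joined. They lie at chr7:138909457-138909756 on the minus strand (Bnip3), chr8:45999801-46000100 on the minus strand (Ankrd37), chr12:54203825-54204124 on the minus strand (Egln3), chr7:46845554-46845853 on the plus strand (Ldha), chr2:11553880-11554179 on the minus strand (Pfkfb3) and chr7:34230287-34230586 on the minus strand (Gpi1), and Ldha and Pfkfb3 are given by the first of 2 listed starts. Bnip3, Ankrd37, Egln3 and Ldha were low with the mutant fragment, Pfkfb3 was high, and Gpi1 is a glycolytic gene without the core in this window.
Bnip3: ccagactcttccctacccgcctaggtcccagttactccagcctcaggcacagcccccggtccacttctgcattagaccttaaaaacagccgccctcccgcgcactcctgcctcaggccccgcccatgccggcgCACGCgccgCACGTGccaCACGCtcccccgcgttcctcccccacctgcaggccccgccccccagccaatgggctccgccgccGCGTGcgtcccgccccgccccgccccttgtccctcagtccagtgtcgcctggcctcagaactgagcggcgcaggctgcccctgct
Ankrd37: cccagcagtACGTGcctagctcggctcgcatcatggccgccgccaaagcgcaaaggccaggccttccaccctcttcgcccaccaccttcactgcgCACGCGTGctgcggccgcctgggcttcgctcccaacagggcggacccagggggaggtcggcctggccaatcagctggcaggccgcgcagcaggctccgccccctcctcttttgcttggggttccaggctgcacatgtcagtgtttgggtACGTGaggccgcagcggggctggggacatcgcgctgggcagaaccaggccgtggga
Egln3: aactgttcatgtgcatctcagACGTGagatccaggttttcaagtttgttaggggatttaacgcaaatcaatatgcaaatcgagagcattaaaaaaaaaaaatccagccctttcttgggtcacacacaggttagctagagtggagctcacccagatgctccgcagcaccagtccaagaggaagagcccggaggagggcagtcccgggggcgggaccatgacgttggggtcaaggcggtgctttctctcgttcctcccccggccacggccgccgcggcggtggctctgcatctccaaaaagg
Ldha: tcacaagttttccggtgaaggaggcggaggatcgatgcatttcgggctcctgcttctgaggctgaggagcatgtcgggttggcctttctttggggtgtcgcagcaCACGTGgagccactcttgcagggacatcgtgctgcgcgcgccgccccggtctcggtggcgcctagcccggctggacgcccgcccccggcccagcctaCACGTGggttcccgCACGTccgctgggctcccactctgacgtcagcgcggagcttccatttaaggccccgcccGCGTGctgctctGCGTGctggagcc
Pfkfb3: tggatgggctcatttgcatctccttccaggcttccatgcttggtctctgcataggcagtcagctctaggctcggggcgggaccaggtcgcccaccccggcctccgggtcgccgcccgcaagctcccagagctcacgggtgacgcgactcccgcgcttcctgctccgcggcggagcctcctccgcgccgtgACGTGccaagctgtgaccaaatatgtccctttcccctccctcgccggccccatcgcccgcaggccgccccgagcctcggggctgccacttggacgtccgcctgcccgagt
Gpi1: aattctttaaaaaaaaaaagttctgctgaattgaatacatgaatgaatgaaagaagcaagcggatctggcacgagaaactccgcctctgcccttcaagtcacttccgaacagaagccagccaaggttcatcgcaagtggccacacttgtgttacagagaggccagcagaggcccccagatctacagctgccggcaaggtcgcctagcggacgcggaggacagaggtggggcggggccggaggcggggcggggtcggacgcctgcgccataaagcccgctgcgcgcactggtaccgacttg

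The core was found in the first listed promoter of 29 of 36 members (80.6%), against 43.8% of the first promoters of 27025 genes. Promoters of members were also richer in G and C, with a median of 64.8% against 52.7% over all genes, and the part of that in the share was not tested. The window of Ldha held the core at 5 places, that of Bnip3 at 4 and that of Ankrd37 at 3. Those shown for Egln3 and Pfkfb3 held it at 1 place each. At the second listed start the core lay at 3 places for Pfkfb3 and at 2 for Ldha. The Pfkfb3 transcript used for RNA, chr2:11393058-11423717 on the build mm9, is shorter than the distance between its listed starts. The window shown for Pfkfb3 may therefore not be the one at the start of that transcript. Which listed start gave the RNA was not tested. A match is a string of letters and not a measured binding site. Bnip3l and Ndrg1 have no entry in the promoter table, and Ero1l is listed there as Ero1a.

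The depth implied by the steps of the lowest RPKM values was 10.8 to 14.0 M (mega) reads in BV2 libraries and 28.8 to 47.8 M in primary libraries. Reads on the transcripts used numbered 3.63 to 4.71 M and 9.85 to 24.6 M. The microglial gene P2ry12 was at most 0.0610 RPKM in BV2 libraries, against 410.0 and 477 RPKM in Q175 and Q7 microglia, so this defining marker of adult microglia was near 0 in the line. The 10 astrocyte markers were at most 0.547 RPKM in any BV2 library, with Gfap and Aqp4 listed at 0. Of the 10 endothelial and mural markers Cldn5 was listed at 0, Flt1, a receptor for Vegfa, stood at 8.53 to 44.4 RPKM, and the others were at most 0.265 RPKM. Mouse Htt stood at 2.86 to 3.97 RPKM in BV2 libraries and does not check the human fragment. In bulk samples fewer cells with an RNA and less of it per cell cannot be told apart.

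In BV2 cells most of these genes were lower with the mutant fragment than with either control. The fit was made in limma on log2(RPKM + 1), with construct and time as terms, for genes that reached 1 RPKM in 2 or more libraries. Of the 36 members tested 34 had a lower fitted level and 2 a higher one, with a median log2 difference of -0.59, against -0.00 over all 10350 genes tested. Bnip3 alone passed an adjusted p of 0.05, where 0.348% of all genes were called, 0.29% higher and 0.058% lower, and 22 members had an unadjusted p under 0.05, as did 2094 of all genes tested. Against the empty vector alone 0 members were called in limma, where 0.087% of all genes were, and 17 members and 1584 of all genes had an unadjusted p under 0.05. Against the wild-type fragment alone 0 members were called, where 0.0676% of all genes were, and 15 members and 1644 of all genes had an unadjusted p under 0.05. These comparisons share the mutant libraries, and the fit has 2 residual degrees of freedom. Its spread includes any difference of a construct's effect between the times. Against both controls 27 members were called without the mutant library of the second time, where 37.1% of all genes were, and 12 without that of 24 h, where 20.4% were. They numbered 6, 3 and 3, and 3, when a control library was left out instead, in the order wild-type fragment at the second time and at 24 h, then empty vector at the second time and at 24 h, where 3.18%, 2.28%, 1.19% and 0.852% of all genes were called. For 22 of 36 members both mutant libraries lay below all 4 control libraries, where 14.5% of all genes did. For 1 member, Pfkfb3, both lay above them, where 12.3% of all genes did. Adm, a vasodilator peptide, and Slc16a3, an exporter of lactate, were too low to test, with at most 2 implied reads of Adm and 1 of Slc16a3 in any BV2 library.

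**Figure D1:**
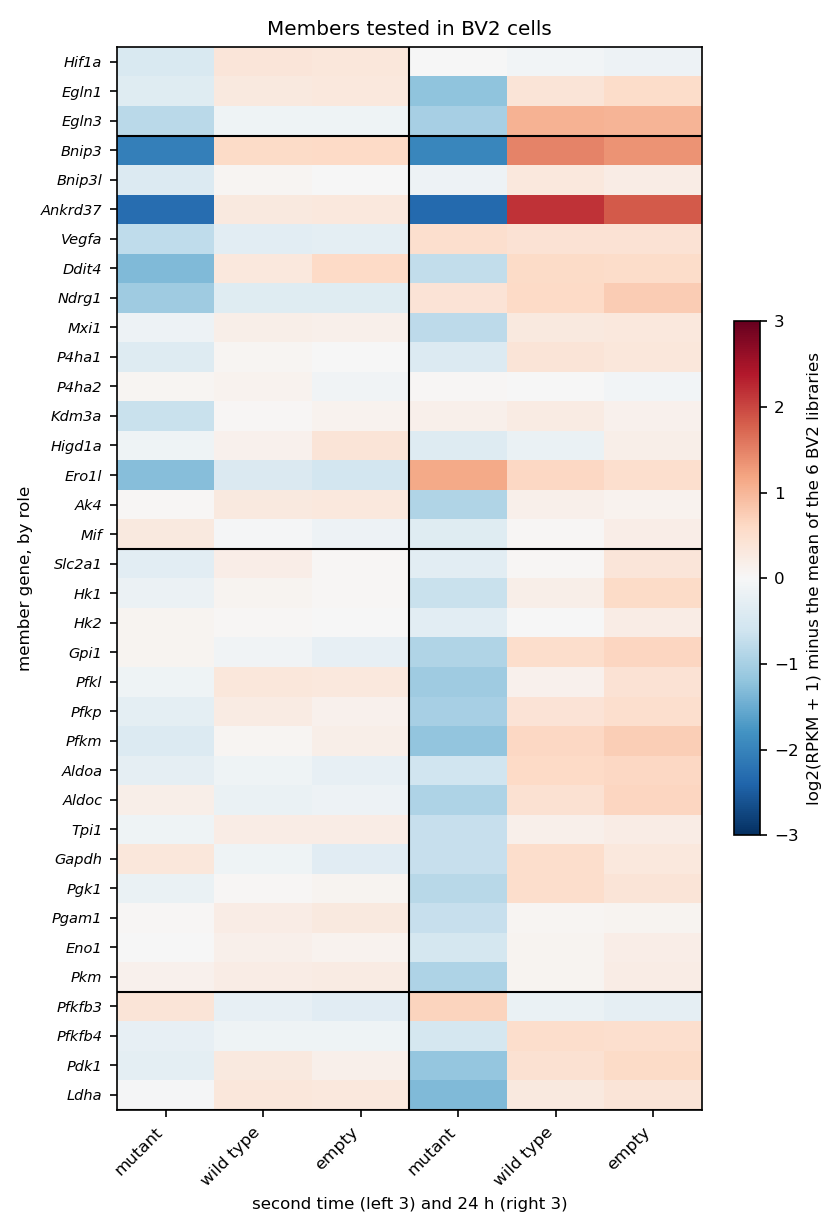
Heatmap of log2(RPKM + 1) minus the mean of the 6 BV2 libraries for the 36 members tested, in rows grouped by role, with the 3 libraries of the second time left of the 3 of 24 h and mutant fragment, wild-type fragment and empty vector in that order. Bnip3 and Ankrd37 are low in both mutant columns, and most glycolytic rows are lowest in the mutant column of 24 h.

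Among the genes of oxygen sensing, both prolyl hydroxylases were low. In the order second time and 24 h, Egln3, a hydroxylase that HIF itself raises, stood at 4.87 and 4.09 RPKM with the mutant fragment, against 8.40 and 20.1 RPKM with the wild-type fragment and 8.40 and 19.7 RPKM with the empty vector. In the same order Egln1, the main hydroxylase of HIF, stood at 5.92 and 2.86 RPKM with the mutant fragment, against 9.90 and 10.5 RPKM with the wild-type fragment and 10.0 and 11.9 RPKM with the empty vector. For both genes the 2 mutant libraries lay below all 4 control libraries. The limma differences were -1.36 (SE 0.34, adjusted p = 0.15) for Egln3 and -1.16 (SE 0.26, adjusted p = 0.13) for Egln1, so neither was called. Hif1a stood at 12.5 and 17.6 RPKM with the mutant fragment, against 22.9 and 16.6 RPKM with the wild-type fragment and 22.6 and 15.8 RPKM with the empty vector. Its mutant library was below the controls at the second time and above them at 24 h.

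Among the hypoxia targets outside glycolysis, Bnip3 and Ankrd37 had the widest gaps. Bnip3, a mitophagy receptor on the outer mitochondrial membrane, stood at 4.78 and 5.17 RPKM with the mutant fragment, against 34.6 and 66.5 RPKM with the wild-type fragment and 35.1 and 59.5 RPKM with the empty vector, at the second time and 24 h. The mutant libraries were alike and far below every control library, and the controls were higher at 24 h. The difference was -3.0 (SE 0.22, adjusted p = 0.028) in limma. The call was lost with a pseudocount of 5 (adjusted p = 0.053) and with no filter on low values (adjusted p = 0.11). It held in each of the 6 fits that left out 1 library, with differences from -3.37 to -2.63.

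Ankrd37, an ankyrin repeat protein known as a HIF target, stood at 0.207 and 0.162 RPKM with the mutant fragment, against 6.25 and 25.6 RPKM with the wild-type fragment and 6.37 and 20.1 RPKM with the empty vector, at the second time and 24 h. The mutant values rest on 4 implied reads over both libraries, against 654 over the 4 control libraries. The ratio per depth was 0.0127, with an exact 95% interval of 0.00346 to 0.0327 that covers counting error only. The fitted difference of -3.47 (SE 0.43, adjusted p = 0.069) was the largest of all members but was not called in limma. Since its mutant level is near 0, that value understates the gap on the log scale.

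Ddit4, an inhibitor of mTORC1 that answers to hypoxia and other stresses, stood at 2.99 and 4.94 RPKM with the mutant fragment, against 11.5 and 13.8 RPKM with the wild-type fragment and 14.0 and 13.6 RPKM with the empty vector. Both mutant libraries were below all controls, and the difference was -1.54 (SE 0.18, adjusted p = 0.067) in limma. Bnip3l, a mitophagy receptor related to Bnip3, had a smaller gap, at 15.2 and 18.2 RPKM with the mutant fragment, against 21.5 and 25.7 RPKM with the wild-type fragment and 20.2 and 23.9 RPKM with the empty vector. The mutant libraries of Mxi1 (a MYC antagonist), P4ha1 (a collagen prolyl hydroxylase) and Ak4 (a mitochondrial adenylate kinase) also lay below all controls. P4ha2, of the same family as P4ha1, stood at 1.01 to 1.33 RPKM over the 6 libraries, with the constructs overlapping. Vegfa, Ndrg1, Kdm3a, Higd1a, Ero1l and Mif overlapped with the controls when both times were pooled.

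**Figure D2:**
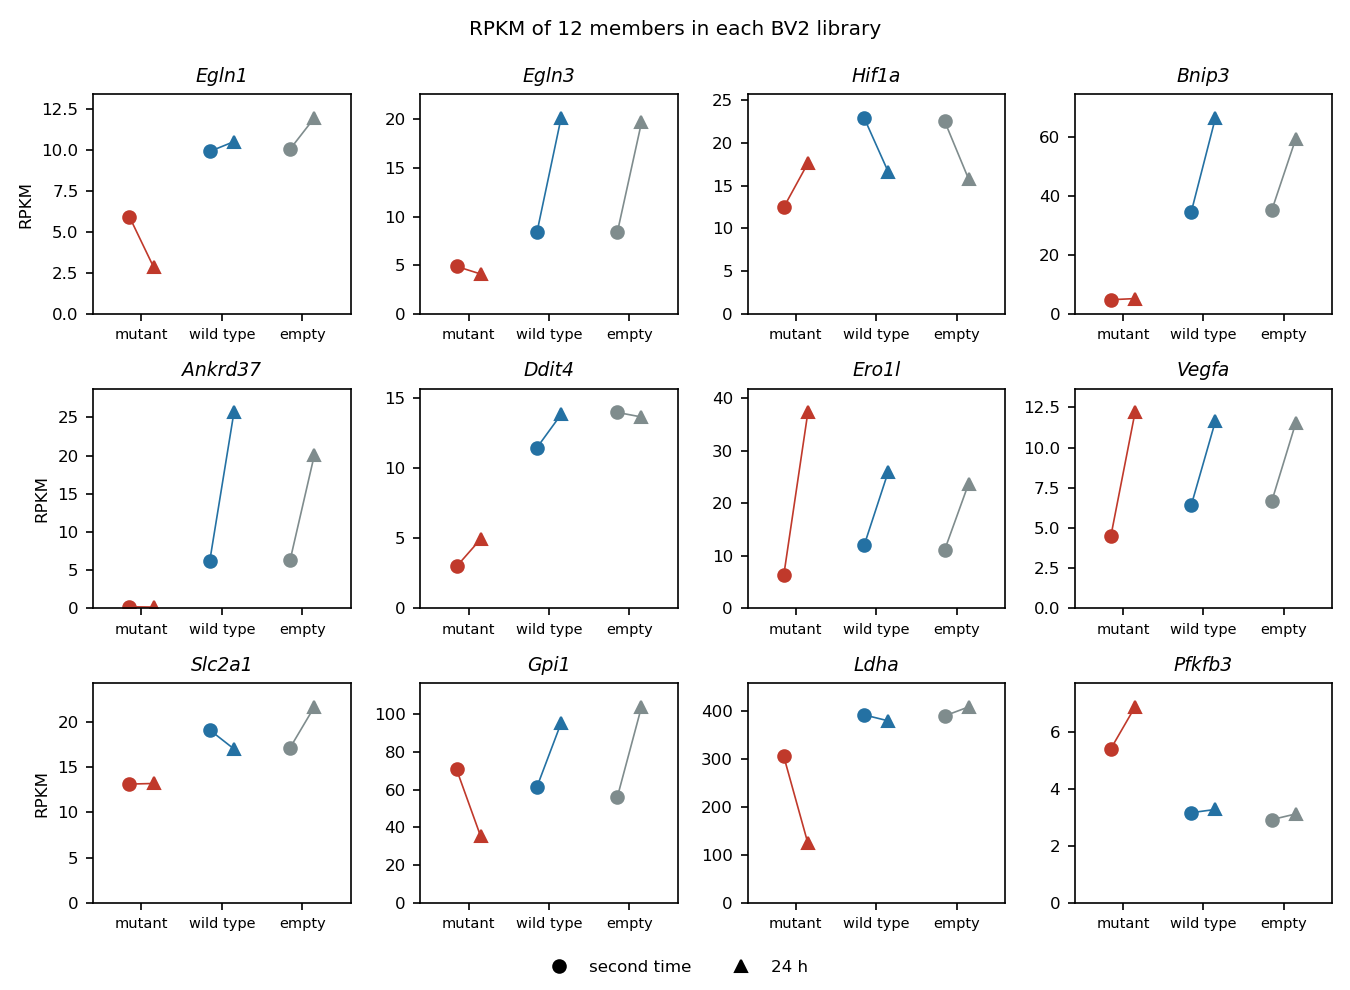
RPKM of 12 members in each BV2 library, with mutant-fragment, wild-type-fragment and empty-vector cells from left to right and circles for the second time joined by a line to triangles for 24 h. For Bnip3 the mutant libraries sit at 4.78 and 5.17 RPKM, below all 4 control libraries, and for Pfkfb3 at 5.43 and 6.89 RPKM, above them.

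All 15 genes of glucose uptake and glycolysis had a lower fitted level with the mutant fragment, with 0 called in limma and 8 at an unadjusted p under 0.05. Gapdh turned when the mutant library of 24 h was left out, to 0.58 (adjusted p = 0.033, limma). The summed level of these genes was 1679.6 RPKM at the second time and 1075 RPKM at 24 h with the mutant fragment, against 1866 and 2149.8 RPKM with the wild-type fragment and 1843 and 2218 RPKM with the empty vector. The sum was below both controls at each time and lowest in the mutant library of 24 h. Pfkm, a subunit of phosphofructokinase, had the largest difference of these genes, -1.20 (SE 0.33, adjusted p = 0.17) in limma. It stood at 5.69 and 2.90 RPKM with the mutant fragment, against 8.31 and 12.6 RPKM with the wild-type fragment and 9.10 and 13.7 RPKM with the empty vector, at the second time and 24 h. The subunits Pfkl and Pfkp also had both mutant libraries below all controls. Slc2a1, a glucose transporter, stood at 13.1 and 13.2 RPKM with the mutant fragment, against 19.1 and 17.0 RPKM with the wild-type fragment and 17.2 and 21.7 RPKM with the empty vector. Its mutant libraries were alike at both times and below all controls, with a difference of -0.47 (SE 0.17, adjusted p = 0.22).

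The genes that control glycolysis split. Pfkfb3, which makes an activator of phosphofructokinase, stood at 5.43 and 6.89 RPKM with the mutant fragment, against 3.17 and 3.29 RPKM with the wild-type fragment and 2.93 and 3.13 RPKM with the empty vector, at the second time and 24 h. It had a difference of 0.79 (SE 0.15, adjusted p = 0.11) in limma. Its relative Pfkfb4 lay on the other side of the controls, at 2.28 and 1.68 RPKM with the mutant fragment, against 2.55 and 4.61 RPKM with the wild-type fragment and 2.54 and 4.46 RPKM with the empty vector. Ldha, which turns pyruvate into lactate, stood at 305 and 124 RPKM with the mutant fragment, against 391 and 379 RPKM with the wild-type fragment and 389 and 408 RPKM with the empty vector. Pdk1, a kinase that holds pyruvate out of the citric acid cycle, stood at 9.03 and 4.42 RPKM with the mutant fragment, against 13.9 and 15.8 RPKM with the wild-type fragment and 12.5 and 17.1 RPKM with the empty vector. For Ldha and Pdk1 both mutant libraries lay below all controls, with differences of -1.0 (SE 0.32, adjusted p = 0.20) and -1.09 (SE 0.30, adjusted p = 0.17).

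The mutant effect was then set apart by time, in a limma fit that takes the wild-type-fragment and empty-vector libraries of a time as replicates and assumes that mutant libraries vary like them. At the second time 15 of 36 members fell with the mutant fragment and 1 rose, where 23.5% of all genes were called, 14.6% falling and 8.98% rising. At 24 h 26 members fell and 2 rose, where 39.6% of all genes were called, 18.4% falling and 21.1% rising. The median difference of the members was -0.37 at the second time and -1.04 at 24 h, against -0.03 and 0.05 over all genes. Without a fit, 29 members lay below both controls at the second time and 6 above them, where 45.7% and 40.3% of all genes did. At 24 h 30 lay below and 5 above, where 40.6% and 47.7% of all genes did. The effect at the second time minus the effect at 24 h was positive and called for 20 members and negative and called for 4, where 28.1% of all genes were called, 11.9% positive and 16.2% negative. Calls at 24 h numbered 25 to 29 members when any 1 control library was left out, where 27.4% to 30.9% of all genes were called. Calls at the second time numbered 10 and 10 without the wild-type-fragment and empty-vector libraries of 24 h, where 18.5% and 18.3% of all genes were called. They numbered 3 and 1 without those of the second time, where 2% and 0.342% were. Calls of the difference between times numbered 22 and 15 without the libraries of 24 h, where 20.8% and 12.7% of all genes were called. They numbered 0 and 0 without those of the second time, where 0% and 0.224% were.

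Glycolytic genes differed between the times. Of 15 genes of glucose uptake and glycolysis 2, Pfkm and Pfkp, fell at the second time and 13 fell at 24 h, and for 10 the difference between the effects was positive and called. Aldoc, an aldolase, stood at 16.9 RPKM with the mutant fragment, against 12.7 RPKM with the wild-type fragment and 13.3 RPKM with the empty vector at the second time. At 24 h it stood at 7.36 RPKM with the mutant fragment, against 20.9 RPKM with the wild-type fragment and 24.0 RPKM with the empty vector, and the difference between the effects was 1.83 (SE 0.18, adjusted p = 0.0097) in limma. Gpi1, the isomerase of glucose 6-phosphate, stood at 70.8 RPKM with the mutant fragment, against 61.5 RPKM with the wild-type fragment and 56.1 RPKM with the empty vector at the second time, and at 35.2 RPKM with the mutant fragment, against 95.4 RPKM with the wild-type fragment and 104 RPKM with the empty vector at 24 h. For both genes the mutant library was above the controls at the second time, where the difference was not called (adjusted p = 0.11 for Aldoc and 0.17 for Gpi1), and below them at 24 h. Gapdh stood at 41.1 RPKM with the mutant fragment, against 29.4 RPKM with the wild-type fragment and 25.3 RPKM with the empty vector at the second time (adjusted p = 0.053), and at 19.7 RPKM with the mutant fragment, against 47.6 RPKM with the wild-type fragment and 40.4 RPKM with the empty vector at 24 h. The RefSeq table names 3 pseudogenes of Gapdh, 3 of Ldha, 3 of Mif, 2 each of Aldoa, Pgk1 and Pgam1, and 1 of Bnip3l, so reads of these genes may be shared and their levels are uncertain.

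**Figure D3:**
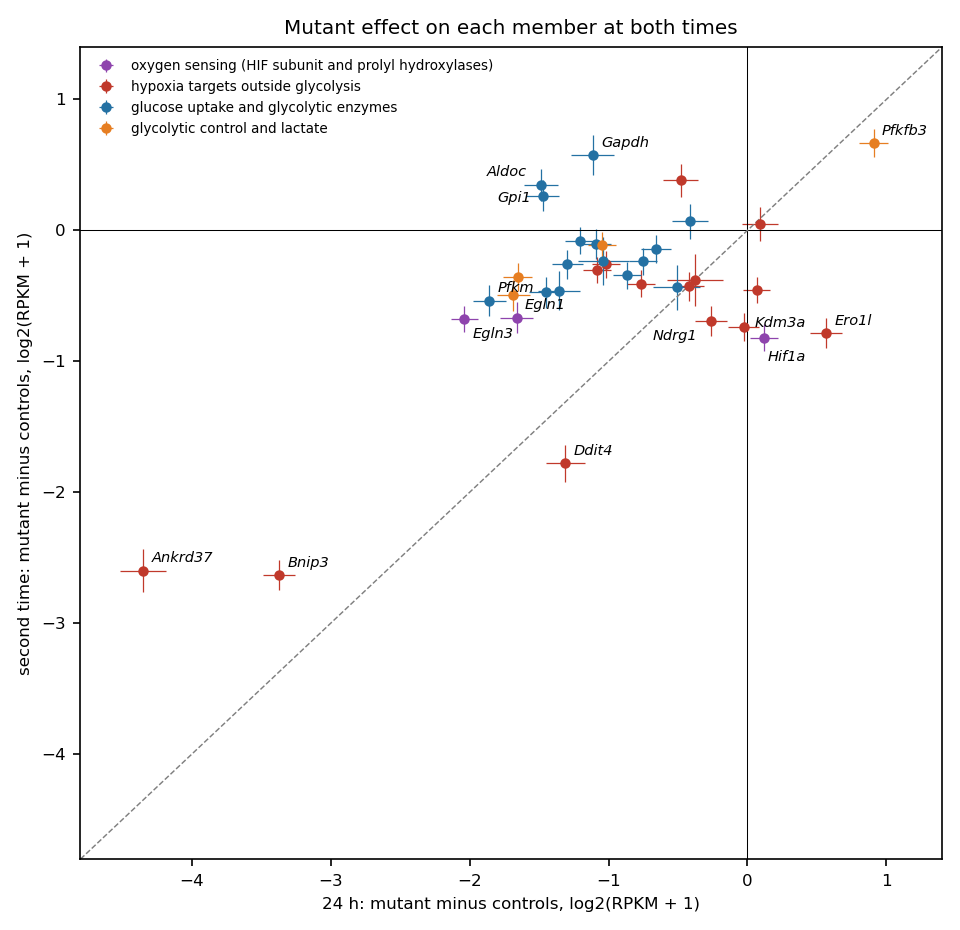
Difference of the mutant fragment from both controls in log2(RPKM + 1) for each of the 36 members tested, at 24 h on the horizontal axis and at the second time on the vertical axis, with bars of 1 SE, colours for the role and a dashed line of equality. Ankrd37, Bnip3 and Ddit4 are low at both times, most glycolytic genes lie above the line, and Hif1a, Ero1l and Kdm3a lie below it.

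Other members moved the opposite way between the times. Ero1l, an oxidase of the endoplasmic reticulum, stood at 6.27 RPKM with the mutant fragment, against 12.0 RPKM with the wild-type fragment and 11.0 RPKM with the empty vector at the second time, and at 37.3 RPKM with the mutant fragment, against 26.0 RPKM with the wild-type fragment and 23.7 RPKM with the empty vector at 24 h. It fell by 0.78 at the second time (SE 0.12, adjusted p = 0.013) and rose by 0.57 at 24 h (SE 0.12, adjusted p = 0.018) in limma. Ddit3, a gene of endoplasmic reticulum stress that is no member, stood at 5.48 RPKM with the mutant fragment, against 4.47 RPKM with the wild-type fragment and 4.79 RPKM with the empty vector at the second time and at 146 RPKM with the mutant fragment, against 22.8 RPKM with the wild-type fragment and 18.0 RPKM with the empty vector at 24 h, and its part in the result for Ero1l was not tested. Hif1a fell by 0.82 at the second time (SE 0.10, adjusted p = 0.0093), and its difference at 24 h was 0.12 (SE 0.10, adjusted p = 0.40). Kdm3a, a histone demethylase known as a HIF target, stood at 2.26 RPKM with the mutant fragment, against 4.31 RPKM with the wild-type fragment and 4.58 RPKM with the empty vector at the second time, where it fell by 0.74 (adjusted p = 0.013, limma). At 24 h its level was 4.76 RPKM with the mutant fragment, against 5.11 RPKM with the wild-type fragment and 4.64 RPKM with the empty vector. Vegfa, the vessel growth factor, stood at 4.51 RPKM with the mutant fragment, against 6.42 RPKM with the wild-type fragment and 6.65 RPKM with the empty vector at the second time, where it fell by 0.45 (adjusted p = 0.032, limma), and at 12.2 RPKM with the mutant fragment, against 11.6 RPKM with the wild-type fragment and 11.5 RPKM with the empty vector at 24 h.

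Bnip3, Ankrd37, Egln3 and Ddit4 fell at both times. In limma Bnip3 fell by 2.63 at the second time and fell by 3.37 at 24 h (adjusted p = 0.0023 and 0.00052). Ankrd37 fell by 2.6 and fell by 4.35 (adjusted p = 0.0044 and 0.00054), and Egln3 fell by 0.68 and fell by 2.04 (adjusted p = 0.012 and 0.00074). For these genes the control libraries were higher at 24 h, as given above, while the 2 mutant libraries were close to each other. Ddit4 fell by 1.78 and fell by 1.31 (adjusted p = 0.0055 and 0.0032), and the difference between its effects was -0.47 (SE 0.20, adjusted p = 0.14). Pfkfb3 rose at both times, by 0.67 at the second time (adjusted p = 0.014) and by 0.91 at 24 h (adjusted p = 0.0039, limma).

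Between the second time and 24 h over all constructs, 0 members were called in limma and 5 had an unadjusted p under 0.05, where 0% of 10350 genes were called and 2812 had such a p. The largest differences were -1.50 (SE 0.31, adjusted p = 0.076) for Ero1l, -1.19 (SE 0.16, adjusted p = 0.061) for Ndrg1, a hypoxia target linked to growth arrest, and -1.11 (SE 0.40, adjusted p = 0.17) for Ankrd37. Without the mutant library of the second time or that of 24 h, which leaves the control libraries to set the difference, 15 and 15 members were called, in each case 14 of them lower at the second time, where 44.9% and 45% of all genes were called. All 10 proliferation genes had a higher fitted level at the second time, with a median difference of 1.62, and their part in the difference between times was not tested.

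The wild-type fragment was not detectably different from the empty vector for these genes. In limma 0 of 36 members were called, 0 had an unadjusted p under 0.05, and 0% of 10350 genes were called, with 66 at an unadjusted p under 0.05. Differences ran from -0.32 for Higd1a, a mitochondrial hypoxia target, to 0.22 for Gapdh. For Bnip3 the difference was 0.07, with a 95% interval from -0.58 to 0.72, and a missed threshold does not show that the fragment and the vector act alike.

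Related genes from other lists were set beside the members. For all lists that follow, the shares over all genes were 14.6% falling and 8.98% rising at the second time. At 24 h they were 18.4% falling and 21.1% rising. Of 22 other hypoxia-responsive genes tested 6 fell and 2 rose at the second time, and 11 fell and 3 rose at 24 h. Plod2, a collagen lysyl hydroxylase, stood at 2.71 and 3.19 RPKM with the mutant fragment, against 7.12 and 8.27 RPKM with the wild-type fragment and 6.47 and 7.98 RPKM with the empty vector, at the second time and 24 h. Nos2, the inducible nitric oxide synthase, stood at 3.21 and 9.30 RPKM with the mutant fragment, against 0.777 and 1.23 RPKM with the wild-type fragment and 0.541 and 1.98 RPKM with the empty vector. Plod2 was thus lower and Nos2 higher with the mutant fragment in both libraries. Of 12 other components of the HIF pathway tested 2 fell and 1 rose at the second time, and 2 fell and 5 rose at 24 h. Epas1, which encodes another HIF alpha subunit, stood at 14.7 and 11.3 RPKM with the mutant fragment, against 10.0 and 22.8 RPKM with the wild-type fragment and 8.80 and 22.2 RPKM with the empty vector. In limma it rose by 0.60 at the second time (adjusted p = 0.025) and fell by 0.94 at 24 h (adjusted p = 0.0048).

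Of 24 tested genes of the citric acid cycle and pyruvate dehydrogenase 3 fell and 2 rose at the second time, and 10 fell and 0 rose at 24 h. Pdha1, a subunit of pyruvate dehydrogenase, fell by 0.85 at 24 h (SE 0.12, adjusted p = 0.0066, limma). Of 7 genes of the pentose phosphate pathway 0 fell and 3 rose at the second time, among them G6pdx, which encodes its first enzyme, by 0.55 (adjusted p = 0.033, limma), and 2 fell and 0 rose at 24 h. Of 16 other genes of mitophagy and autophagy 1 fell and 1 rose at the second time, and 2 fell and 2 rose at 24 h. Sqstm1, an autophagy receptor, rose at both times, by 0.76 and 3.00 (adjusted p = 0.010 and 0.00052, limma), and stood at 56.7 and 342 RPKM with the mutant fragment, against 33.2 and 42.5 RPKM with the wild-type fragment and 32.8 and 41.3 RPKM with the empty vector. Of 12 genes of mTORC1 and stress control 0 fell and 1 rose at the second time, and 2 fell and 5 rose at 24 h, when Trib3, a stress pseudokinase, rose by 2.82 (adjusted p = 0.0011, limma). Of 10 proliferation genes 2 fell and 0 rose at the second time, and 0 fell and 7 rose at 24 h. Lcn2, a gene of granulocytes and the acute phase, stood at 1.98 and 219 RPKM with the mutant fragment, against 0.0930 and 0.180 RPKM with the wild-type fragment and 0.0840 and 0.106 RPKM with the empty vector. The summed level of the 10 microglia markers was 36.95 and 25.66 RPKM with the mutant fragment, against 37.98 and 118.59 RPKM with the wild-type fragment and 35.95 and 107.43 RPKM with the empty vector. The mutant library of 24 h thus stood apart in Lcn2, Ddit3 and Sqstm1, Lcn2 and Ddit3 having been chosen after their values were seen. In the microglia markers the control libraries of 24 h stood apart. There the mutant library of 24 h was nearer to the libraries of the second time. Of 9 macrophage markers tested 0 fell and 7 rose at the second time, where 14.6% of all genes fell and 8.98% rose. At 24 h these markers split, with 3 falling and 4 rising, where 18.4% of all genes fell and 21.1% rose. The summed level of the 10 macrophage markers was 1835 and 1428 RPKM with the mutant fragment, against 868 and 1034 RPKM with the wild-type fragment and 724 and 1039 RPKM with the empty vector. Most of it was Lyz2, the lysozyme of myeloid cells, at 1398 and 1069.9 RPKM with the mutant fragment, against 566 and 622 RPKM with the wild-type fragment and 470.4 and 592 RPKM with the empty vector. Flt1 fell by 0.66 at the second time and by 2.25 at 24 h (adjusted p = 0.015 and 0.00074, limma). The part of these genes in the values of members was not tested.

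Peaks were available for 4 antibodies in each construct, 1 library each at 24 h, so differences between constructs have no replicate check and no test. In the order mutant fragment, wild-type fragment and empty vector, PU.1, the defining factor of the myeloid lineage, had a peak within 20 kb of the start of 37, 34 and 36 of 38 members, where 87.7%, 82.8% and 89.8% of 10350 expressed genes had one. C/EBPβ, a factor of inflammatory myeloid genes, had one at 36, 37 and 34 members, where the shares were 83.1%, 91.5% and 73.8%. C/EBPα, its relative, had one at 19, 30 and 25 members, where the shares were 32.4%, 57.5% and 38.3%. H3K4me2, a mark of promoters and enhancers, had one at 38, 38 and 38 members, where the shares were 96.3%, 96.0% and 96.1%. For each factor the construct with the most and the construct with the fewest members were ranked alike over all expressed genes, except that for PU.1 the mutant fragment led over members and the empty vector over all expressed genes. The share of tags in peaks, in the same order, was 25.8%, 17.4% and 26.9% for PU.1, 3.88%, 4.10% and 2.38% for C/EBPα and 24.3%, 23.0% and 8.09% for C/EBPβ, and its part in the counts was not tested.

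Overlapping peaks of the 3 constructs were joined into loci. H3K4me2 gave 158 loci near members, with 121 (76.6%) in all 3 constructs, 5 (3.16%) only with the mutant fragment and 5 (3.16%) in both controls only, where the shares near expressed genes were 76.8%, 6.73% and 3.38%. PU.1 gave 200 loci, with 32 (16.0%) only with the mutant fragment and 13 (6.5%) in both controls only, where the shares near expressed genes were 12.0% and 5.81%. C/EBPβ gave 211 loci, with 20 (9.48%) and 9 (4.27%) of these kinds, where the shares near expressed genes were 8.84% and 5.26%. C/EBPα gave 76 loci, with 4 (5.26%) and 15 (19.7%), where the shares were 5.65% and 13.8%. Without replicates the gaps between members and expressed genes were not tested.

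Some of these loci lay at or near the starts of members with wide gaps in RNA, and the members given here were picked for those gaps. Positions here are on mm9, the build of the files, and distances run from the start to the centre, negative upstream. At Bnip3 (chr7:146082519-146101189, minus strand) a PU.1 peak centred at -156 bases from the start, chr7:146101278-146101412, was called only with the mutant fragment. A C/EBPβ peak at -456 bases, chr7:146101566-146101725, was called in both controls only. At Egln3 (chr12:55279968-55304861, minus strand) a PU.1 peak at -88 bases, chr12:55304874-55305024, was called in both controls only, and PU.1 peaks at 1883 and 2840 bases, chr12:55302911-55303045 and chr12:55301954-55302088, only with the mutant fragment. At Pfkfb3 (chr2:11393058-11423717, minus strand) a C/EBPβ peak at 648 bases, chr2:11422997-11423141, was called only with the mutant fragment, beside a peak at the start, chr2:11423629-11423838, that all 3 constructs had. Ddit4 had 3 PU.1 loci and Ldha 2 C/EBPβ loci that were called only with the mutant fragment. Such loci were not limited to members with wide gaps. Mif, whose RNA overlapped with the controls over both times, had PU.1 loci only with the mutant fragment at -661 and 1292 bases. A link between loci and RNA was not tested. The promoter stretches shown earlier are on another build, so these peaks were not placed on them.

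**Figure D4:**
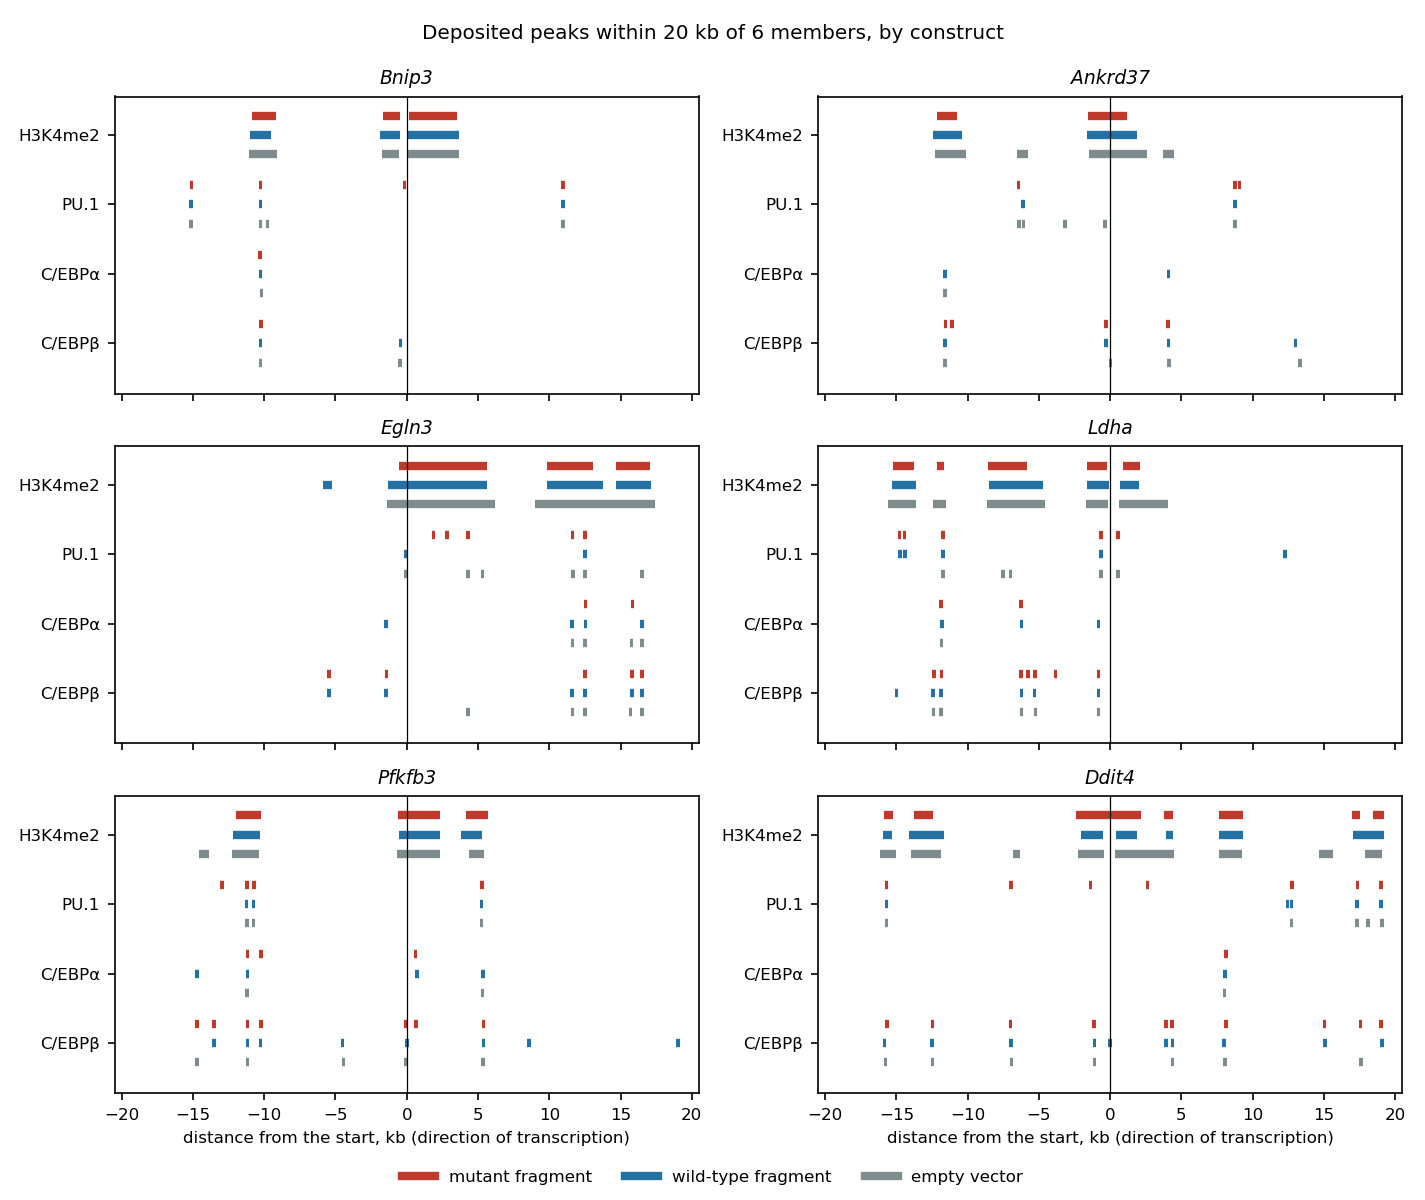
Deposited peaks within 20 kb of the starts of 6 members, as distance from the start in kb along the direction of transcription, with 1 row for each of the 4 antibodies and, within it, mutant fragment on top, wild-type fragment and empty vector, and peaks under 250 bases drawn 250 bases wide. H3K4me2 lies near every start in all 3 constructs, and PU.1 and C/EBPβ peaks near the starts of Bnip3 and Egln3 differ between constructs.

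In primary cells 0 of 35 members tested were called for genotype in limma, with cell type as a second term, where 0.337% of 10687 genes were called, and 4 members and 283 of all genes had an unadjusted p under 0.05. In Q175 cells 18 members had a higher fitted level and 17 a lower one. The fit has 1 residual degree of freedom and gave every gene an SE of 0.26. Vegfa had the largest difference, -0.82 (adjusted p = 0.26). It stood at 0.293 RPKM in Q175 microglia against 0.492 RPKM in Q7 microglia, and at 30.6 RPKM in Q175 macrophages against 84.6 RPKM in Q7 macrophages. Ankrd37 stood at 0.775 RPKM in Q175 microglia against 0.846 RPKM in Q7 microglia, and at 3.38 RPKM in Q175 macrophages against 8.37 RPKM in Q7 macrophages. Both genes were lower in the Q175 library of each cell type, with the wider gap in macrophages, which rests on 1 library a genotype. Bnip3 stood at 1.77 RPKM in Q175 microglia against 2.42 RPKM in Q7 microglia, and at 7.22 RPKM in Q175 macrophages against 9.51 RPKM in Q7 macrophages, a difference of -0.33 (adjusted p = 1.00, limma). Pgam1, a glycolytic mutase, and Mif, a cytokine, lay higher in the Q175 library of each cell type. In Q175 and Q7 microglia these values rest on 32 and 18 implied reads of Pgam1 and 39 and 39 of Mif. Both genes have named pseudogenes, so their levels are uncertain. Pgam1 stood at 0.609 RPKM in Q175 microglia against 0.288 RPKM in Q7 microglia, and at 4.53 RPKM in Q175 macrophages against 1.74 RPKM in Q7 macrophages, a difference of 0.67 (adjusted p = 0.95, limma). Mif had a log2(RPKM + 1) difference of 0.18 in microglia and 0.93 in macrophages, and of 0.56 over both (adjusted p = 1.00, limma). Pfkfb3 went opposite ways, at 16.9 RPKM in Q175 microglia against 10.0 RPKM in Q7 microglia, and at 2.91 RPKM in Q175 macrophages against 4.42 RPKM in Q7 macrophages. Granulocyte markers moved with genotype: 5 of 9 fell in Q175 cells, and their summed level was 581 RPKM in Q175 microglia against 1820.3 RPKM in Q7 microglia, and 216 RPKM in Q175 macrophages against 428 RPKM in Q7 macrophages. Their part in the values of members was not tested.

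The members differed widely between sources of cells. Of 37 members tested 28 were higher and 6 lower in BV2 controls than in primary microglia, where 71.7% of 11693 genes were called, 41.5% higher and 30.3% lower. Against macrophages 21 were higher and 6 lower in BV2 controls, where 65.7% of genes were called, 23.7% higher and 42% lower. With quantile normalization 26 were higher and 2 lower against macrophages. In microglia 4 were higher and 23 lower than in macrophages, where 61.3% of genes were called, 17% higher and 44.3% lower. Eno1, Pgam1, Pgk1, Mif and Gapdh stood at 25.3 to 425 RPKM in BV2 controls and at 0.288 to 30.5 RPKM in primary libraries. The 82 ribosomal protein genes, chosen after the values were seen, had medians of 236 to 296 RPKM in BV2 libraries and 4.79 to 9.03 RPKM in primary libraries. Genes of both kinds are known for near-identical copies in the genome, and the sources used here do not say how reads shared between copies were counted. The part of that in the differences was not tested. The members described next have no pseudogene named in the RefSeq table.

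**Figure D5:**
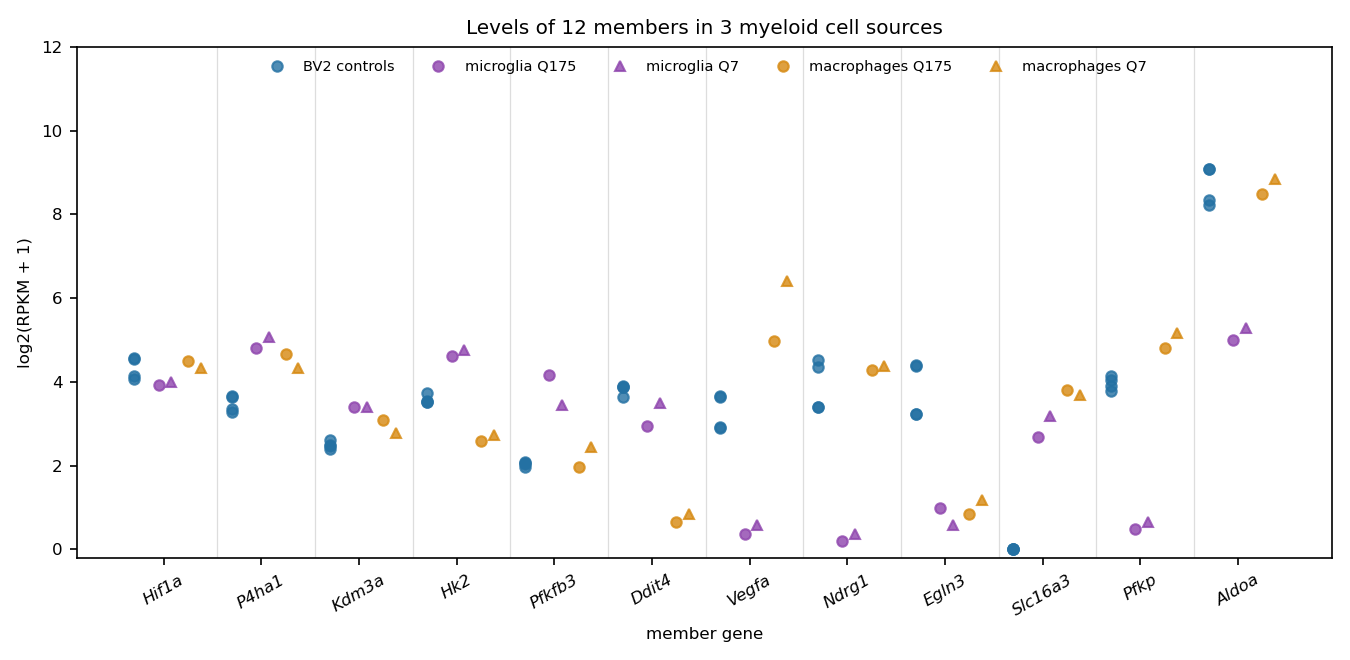
Level of 12 members as log2(RPKM + 1) in the 4 BV2 control libraries (blue), 2 microglia libraries (purple) and 2 macrophage libraries (orange), with circles for Q175 and triangles for Q7 in primary cells. Hk2, Pfkfb3, P4ha1 and Kdm3a are higher in microglia than in BV2 controls, Ddit4 is lowest in macrophages, and Vegfa, Ndrg1 and Pfkp are close to 0 in microglia.

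Some members were lower in the line than in microglia. Hk2, an inducible hexokinase, stood at 10.5 to 12.4 RPKM in the 4 BV2 control libraries, against 23.6 and 26.1 RPKM in Q175 and Q7 microglia and 5.00 and 5.63 RPKM in Q175 and Q7 macrophages. It was lower in BV2 controls than in microglia (difference -1.11, SE 0.12, adjusted p = 8.9e-05) and higher than in macrophages (difference 0.93, SE 0.12, adjusted p = 0.00028) in limma. Pfkfb3 stood at 2.93 to 3.29 RPKM in the 4 BV2 control libraries, against 16.9 and 10.0 RPKM in Q175 and Q7 microglia and 2.91 and 4.42 RPKM in Q175 and Q7 macrophages, and BV2 controls and macrophages did not differ beyond their spread (difference -0.16, SE 0.21, adjusted p = 0.54). P4ha1 stood at 8.69 to 11.8 RPKM in the 4 BV2 control libraries, against 26.9 and 32.6 RPKM in Q175 and Q7 microglia and 24.6 and 19.2 RPKM in Q175 and Q7 macrophages. Slc16a3 had 0 implied reads in the 4 BV2 control libraries, against 5.39 and 8.18 RPKM in Q175 and Q7 microglia and 13 and 11.8 RPKM in Q175 and Q7 macrophages.

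Microglia and macrophages differed most in Vegfa, with a difference of -5.23 (SE 0.47, adjusted p = 4.2e-05) in limma, and BV2 controls stood between them at 6.42 to 11.6 RPKM. Pfkp stood at 0.395 and 0.567 RPKM in Q175 and Q7 microglia, against 27.2 and 34.7 RPKM in Q175 and Q7 macrophages. Ndrg1 stood at 0.145 and 0.295 RPKM in microglia, against 18.5 and 20.0 RPKM in macrophages, in the same order. Ddit4 was higher in microglia, at 6.77 and 10.3 RPKM, against 0.586 and 0.807 RPKM in macrophages (difference 2.47, SE 0.20, adjusted p = 2.6e-05, limma). Quantile normalization moved the median of all genes by 0.43 for microglia against macrophages, and 10 members were then higher and 17 lower in microglia. It moved the share of higher genes among all calls to 51.0%, against 27.7% as deposited, and for BV2 controls against macrophages to 48.6%, against 36.1%. All 10 proliferation genes were lower in microglia than in macrophages, with a median difference of -3.44, and their part in the result was not tested. Hif1a stood at 15.8 to 22.9 RPKM in the 4 BV2 control libraries, against 14.3 and 14.9 RPKM in Q175 and Q7 microglia and 21.6 and 19.3 RPKM in Q175 and Q7 macrophages. It was called in none of the 3 comparisons of sources (adjusted p = 0.097, 0.70 and 0.090 in limma), and quantile normalization turned its direction in each. It was then called higher in BV2 controls than in macrophages, at 0.40 (adjusted p = 0.023), and higher in microglia than in macrophages, at 0.50 (adjusted p = 0.019), and was not called between BV2 controls and microglia, at -0.10 (adjusted p = 0.49).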

How the data were processed

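Poly(A) RNA of 10 libraries and peaks of 12 ChIP libraries were used. The authors deposited RPKM per RefSeq transcript with transcript length. STAR 2.0.3e, Bowtie, HOMER, edgeR and mm9 are named, per the submitters' processing notes, without saying where edgeR entered. Per the file headers, HOMER called peaks for every library separately, requiring 4-fold over input and local tags, with an input library whose name points to other macrophages, and the deposited peak score is 1 throughout. Header fold, p and share of tags are the authors' values.

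A symbol with several transcripts was represented by the one of highest mean RPKM. Values were tested as log2(RPKM + 1) in limma 3.58.1 (R 4.3.3) with Benjamini-Hochberg adjustment over all genes that reached 1 RPKM in 2 or more of the fitted libraries, with a threshold of 0.05, and the fits were tested on simulated data. A fold change on this scale understates the change of low genes. Of low values 99.4% or more were whole reads within 0.1 reads, and the depth implied by them was 10.8 to 47.8 M reads. Peaks of different constructs were joined when they shared 1 base. Named members were drawn from those past the threshold, the 12 with the largest difference per comparison, and Hif1a, Egln1, Egln3, Bnip3, Ldha, Slc2a1 and Gapdh; the others are given by counts. Of other lists up to 3 genes were named, and these were not always the ones with the largest difference. Members, lists and tests were chosen with earlier results of these data known. Alternatives were other pseudocounts, filters, scaling, transcripts, priors and peak windows, and leaving out libraries.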

Additional observations from a re-analysis of the deposited data

Results flagged for a closer look

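For 24 of 36 members the mutant effect at the second time differed from that at 24 h by a test of the difference itself in limma, where 28.1% of all genes tested did. The values are the effect at the second time minus the effect at 24 h in log2(RPKM + 1). Among the prolyl hydroxylases it was 0.99 for Egln1 and 1.36 for Egln3. Among the glycolytic enzymes it was 1.74 for Gpi1, 0.89 for Pfkl, 0.98 for Pfkp, 1.32 for Pfkm, 1.13 for Aldoa, 1.83 for Aldoc, 0.53 for Tpi1, 1.69 for Gapdh, 1.04 for Pgk1 and 0.99 for Pkm. Among the genes of glycolytic control and lactate it was 0.93 for Pfkfb4, 1.19 for Pdk1 and 1.30 for Ldha. Among the hypoxia targets outside glycolysis with a positive value it was 0.74 for Bnip3, 1.75 for Ankrd37, 0.78 for Mxi1, 0.76 for Ak4 and 0.86 for Mif. It was negative for 4 members, -0.94 for Hif1a, -0.52 for Vegfa, -0.71 for Kdm3a and -1.35 for Ero1l. With the wild-type-fragment or the empty-vector library of the second time left out 0 and 0 members passed, where 0% and 0.224% of all genes did.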

How the results depend on the processing

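Members called for the mutant fragment against both controls numbered 2 with a pseudocount of 0.1, 0 with one of 5, 0 with no filter and 3 with transcripts of 200 bases or more, and 3 to 27 without 1 library. Against the empty vector they numbered 1 at an RPKM of 5 or more and 1 at 200 bases or more, and 1 to 27 without 1 library. Against the wild-type fragment they numbered 1 and 1 with the same filters, and 2 to 27 without 1 library. The highest of these came without the mutant library of the second time, where 37.1%, 33.3% and 33.4% of all genes were called, in the same order. Such a fit holds the mutant library of 24 h alone, assumed to vary like the controls, so its spread comes from the control libraries only. In the full fit a mutant effect that differs between the times adds to the spread. Between the second time and 24 h they numbered 1 with a pseudocount of 5, 1 at an RPKM of 5 or more and 2 at 200 bases or more, and 0 to 15 without 1 library. Without 1 library the mutant effect at the second time gave 1 to 10 calls and its difference between times 0 to 22. The part of the spread in these changes, and any other cause of them, was not tested. Without 1 library, Hif1a ran from -0.82 to 0.12 against both controls, -0.80 to 0.14 against the empty vector, -0.84 to 0.093 against the wild-type fragment, -0.013 to 0.47 between times and -0.17 to 0.0041 between BV2 controls and macrophages. Gapdh ran from -1.11 to 0.58, -1.01 to 0.69 and -1.22 to 0.47 against the same controls. The highest values came without the mutant library of 24 h and passed the threshold against both controls and the empty vector (adjusted p = 0.033 and 0.034, limma) but not against the wild-type fragment (0.066). The lowest came without that of the second time and passed it against each (adjusted p = 0.0060, 0.0094 and 0.0069). It ran from -0.67 to 0.18 between times and -0.82 to 0.23 between microglia and macrophages. Between times Egln1 ran from -0.15 to 0.38, Ldha from -0.011 to 0.67 and Slc2a1 from -0.16 to 0.076, and the difference in mutant effect of Slc2a1 ran from -0.092 to 0.24. With quantile normalization Hif1a turned to -0.015 between times, -0.099 and 0.40 for BV2 controls against microglia and macrophages, and 0.50 for microglia against macrophages, of which the values against macrophages passed the threshold, and the median of all genes moved by -0.11 between times. It moved the share of higher genes among calls against both controls to 95.7%, against 83.3%. Counting peaks as shared when their centres lie within 200 bases gave 25 H3K4me2 loci only with the mutant fragment and 11 in both controls only (11.2% and 4.93%), where the shares near expressed genes were 16.8% and 9.52%. The 2 times stand in for replicates, so time is the replicate block: with no replicate block Bnip3 kept its call (adjusted p = 0.037, limma) and 1 member was called. A stricter peak threshold could not be applied, since every deposited peak score is 1. Leaving out a library was not possible for genotype in primary cells or for a mutant library in the fits by time, which leave no residual degrees of freedom or no contrast. With at most 14.0 M implied reads in BV2 libraries, Adm and Slc16a3 were below what could be tested.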
